A study of Bos taurus with 20 samples.

Results

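FASN (ENSBTAG00000015980) and DGAT1 (ENSBTAG00000026356), genes of fatty acid synthesis and of triglyceride synthesis, were followed in whole bovine conceptuses by RNA sequencing. They were chosen together with SCD (ENSBTAG00000045728), and a gene was used where the chromosome in the count files was the stated one. FASN lay on chromosome 19 and DGAT1 on chromosome 14 as stated. The identifier given for SCD was not in the gene list used, so SCD is not analysed here, and 2 of the 3 named genes remained among 27607 genes in all. The 20 conceptuses, 1 library each, fell into 4 groups by shape and by treatment of the embryo. There were 4 tubular IL6, 4 tubular control, 6 ovoid IL6 and 6 ovoid control conceptuses. IL6 embryos, made by fertilisation in vitro, received recombinant bovine interleukin 6, a cytokine, at 100 ng/ml from day 5. Control embryos received the carrier (SOF-BE1). Blastocysts of both kinds were collected on day 7.5 for transfer, so the IL6 exposure preceded the stage at which RNA was taken. The age of the conceptuses at collection, their breed and the number of recipients are not stated in the labels. Sexes were uneven: 2 males and 2 females in tubular IL6, 3 males and 1 female in tubular controls, 2 males and 4 females in ovoid IL6, and 3 males and 3 females in ovoid controls. Each sample title begins with a code (title code), which the labels leave unexplained. Codes c6186 and c9007 hold IL6 conceptuses and codes c201, c5036 and c8086 hold controls, so treatment and title code cannot be told apart.

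FASN is the multifunctional enzyme that builds saturated long-chain fatty acids, chiefly palmitate, from acetyl-CoA and malonyl-CoA with NADPH. SCD is the desaturase that converts saturated acyl-CoAs into monounsaturated ones. DGAT1 catalyses the last step of triglyceride synthesis, the transfer of a fatty acid from acyl-CoA to diacylglycerol. Bovine embryos are rich in lipid droplets, and the ruminant conceptus makes much new membrane as its trophectoderm grows from an ovoid into a tubular and then a filamentous form. FASN thus acts early and DGAT1 last on the route from acetyl-CoA to stored triglyceride.

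On ARS-UCD1.2, FASN covers chromosome 19 from 50775674 to 50796012 on the forward strand. Its exons merge into 42 blocks with 9860 bases in all. DGAT1 covers chromosome 14 from 603813 to 612791, also on the forward strand, in 17 exon blocks of 2134 bases. Neither gene overlaps another annotated gene, although counting ignored strand and the next annotated gene begins 536 bases beyond the end of DGAT1.

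Counts assigned to genes per library ranged from 4845404 to 11366747 in tubular IL6, 6997220 to 12138818 in tubular control, 2298491 to 10296130 in ovoid IL6 and 329666 to 13940103 in ovoid control conceptuses. Ovoid control replicate 3, the shallowest library, had 37 counts for FASN and 5 for DGAT1. The other 19 libraries had 1017 to 29350 counts for FASN and 59 to 725 for DGAT1. The files pair no identifier with a symbol and 0 of the 27607 identifiers matched the gene table at hand. Markers of trophectoderm, epiblast, hypoblast or maternal cells, and further genes of lipid synthesis, could therefore not be read out. In whole conceptuses, fewer cells of a type and less RNA per cell cannot be told apart.

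FASN was an abundant transcript. Per length, its median over the 20 conceptuses was 353 TPM (a level scaled for gene length and library total), and 388 of the 27607 genes had a higher median. DGAT1 had a median of 38.5 TPM, with 4793 genes above it. On the same scale the level of FASN was 8.76 ± 4.09 times that of DGAT1 (mean and SD of the ratio, n = 20). That ratio was 7.72 ± 3.14 in tubular IL6 (SD, n = 4), 9.58 ± 2.38 in tubular control (SD, n = 4), 9.51 ± 5.80 in ovoid IL6 (SD, n = 6) and 8.18 ± 4.27 in ovoid control conceptuses (SD, n = 6). It ran from 1.60 in ovoid control replicate 3 to 19.5 in ovoid IL6 replicate 1. FASN transcript was thus the more abundant of the pair in each of the 20 libraries.

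FASN, in CPM (counts scaled to a common library total with TMM factors), measured 869, 721, 1874 and 2438 CPM in the 4 tubular IL6 conceptuses. In the 4 tubular controls it measured 2763, 2064, 909 and 1692 CPM. The tubular groups overlapped, although the 2 lowest IL6 conceptuses lay below the lowest control. The 6 ovoid IL6 conceptuses had a lowest value of 479.8, a median of 1949 and a highest value of 2592 CPM. The 6 ovoid controls had a lowest value of 108, a median of 1544 and a highest value of 2658 CPM. Those groups overlapped as well, and within each of the 4 groups the highest conceptus had at least 3.04 times the FASN level of the lowest. Without ovoid control replicate 3 the ovoid controls ran from 1347 CPM, and the other 19 conceptuses together spanned a 5.76-fold range.

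DGAT1 measured 37.5, 31.2, 40.2 and 49.0 CPM in the tubular IL6 conceptuses. In the tubular controls it measured 46.1, 50.8, 21.5 and 49.4 CPM. One control, replicate 3, lay below the 4 IL6 conceptuses and the other controls overlapped them or lay above. The ovoid IL6 conceptuses had a lowest value of 27.8, a median of 37.4 and a highest value of 47.4 CPM. The ovoid controls had a lowest value of 14.6, a median of 42.8 and a highest value of 51.3 CPM. The lowest control value rests on the 5 counts of replicate 3, for which counting error alone gives an exact 95% Poisson interval of 4.75 to 34.1 CPM. DGAT1 thus varied within a narrower range than FASN, 2.38-fold over the 19 conceptuses other than ovoid control replicate 3.

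**Figure D1:**
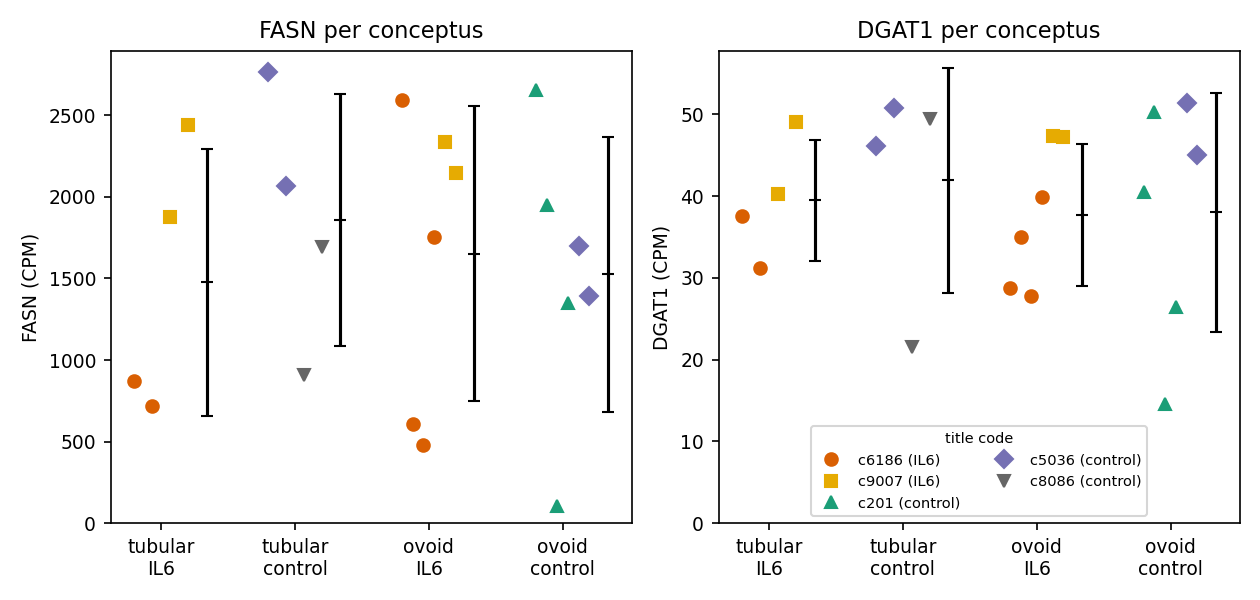
FASN (left) and DGAT1 (right) in CPM for each conceptus, by group, with colour and shape of the points giving the title code and bars giving the group mean ± SD. FASN lies at 108 CPM in 1 ovoid control and between 479.8 and 2763 CPM in the other 19 conceptuses, the 4 lowest of which belong to c6186.

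The spread between conceptuses was estimated from the model as a biological coefficient of variation. It was 61.6% for FASN and 29.4% for DGAT1, against a median of 35.8% over the 14875 genes tested. Among the 87 genes within 1 log2 unit of FASN in mean level, FASN stood at the 86.2nd percentile of this coefficient, and their median was 37.5%. DGAT1 stood at the 52.4th percentile among 4907 genes of similar level. With ovoid control replicate 3 included, FASN was therefore among the more variable of the abundant genes and DGAT1 was in the middle of its class. The 4 groups held 4.17% of the sum of squares of log2 CPM for FASN and 2.33% for DGAT1. The 5 title codes held 22.6% for FASN and 35.6% for DGAT1. Arbitrary classes of 20 conceptuses also hold part of the sum of squares, more so with more classes, and that part was not computed. The pooled SD within groups was 1.21 log2 units for FASN and 0.52 for DGAT1. Within title codes it was 1.12 and 0.43, against 1.13 and 0.480 over all conceptuses. All these figures include ovoid control replicate 3, the shallowest library. Without it the SD over all conceptuses fell from 1.13 to 0.764 log2 units for FASN and from 0.480 to 0.373 for DGAT1. The coefficients, percentiles, shares and pooled SDs were not computed without that library.

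For the effect of IL6 on the 2 genes, neither gene passed the threshold, an adjusted p under 0.05, in tubular or ovoid conceptuses. Log2 fold changes here and below come from the model with terms for the 4 groups and for sex. They can therefore differ in size or sign from the differences between the plain means given beside them. In tubular conceptuses FASN averaged 1475 ± 821 CPM with IL6 and 1857 ± 772 CPM in controls (SD, n = 4 each), a log2 fold change of -0.14 ± 0.67 (SE, edgeR quasi-likelihood test, adjusted p = 0.9997). The 95% interval of that change runs from 0.346-fold to 2.39-fold. DGAT1 averaged 39.5 ± 7.41 CPM with IL6 and 41.96 ± 13.8 CPM in tubular controls (SD, n = 4 each), a log2 fold change of 0.0092 ± 0.31 (SE; adjusted p = 0.9997, edgeR). Its interval is 0.642-fold to 1.58-fold. With 374 of 14875 genes, 2.51%, at an unadjusted p under 0.05, edgeR called 0 genes (0%) in this comparison and so did DESeq2, which had 629 genes at that unadjusted level. The FASN value was -0.98 ± 0.85 (SE) without title code c9007 and 0.55 ± 0.71 (SE) without c6186, so its direction differed between the IL6 title codes.

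In ovoid conceptuses FASN averaged 1652 ± 902 CPM with IL6 and 1525 ± 842 CPM in controls (SD, n = 6 each), a log2 fold change of 0.30 ± 0.55 (SE; adjusted p = 0.955, edgeR). The interval of 0.557-fold to 2.71-fold includes both a lower and a higher level with IL6. DGAT1 averaged 37.7 ± 8.65 CPM with IL6 and 38.0 ± 14.6 CPM in ovoid controls (SD, n = 6 each), a log2 fold change of 0.027 ± 0.26 (SE; adjusted p = 0.998, edgeR) with an interval of 0.701-fold to 1.48-fold. In ovoid conceptuses edgeR called 0 of 14875 genes (0%), while 8.34% had an unadjusted p under 0.05, and the number of DESeq2 calls was 86. Without title code c9007, when the IL6 conceptuses are all of c6186, the same edgeR fit called 154 genes, 150 higher and 4 lower with IL6. FASN and DGAT1 were not among them. Without ovoid control replicate 3 the control mean of FASN was 1808 ± 534 CPM (SD, n = 5). The log2 fold changes were then -0.040 ± 0.44 for FASN and -0.13 ± 0.25 for DGAT1 (SE), so the directions of both turned with 1 library. Without c6186 the FASN value was 1.10 ± 0.68 and without c9007 it was -0.14 ± 0.60 (SE).

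With both shapes weighted equally, the IL6 log2 fold change was 0.080 ± 0.44 for FASN (SE; adjusted p = 0.974, edgeR), or 1.06-fold with an interval of 0.555 to 2.01. For DGAT1 it was 0.018 ± 0.21 (SE; adjusted p = 0.988, edgeR), or 1.01-fold with an interval of 0.750 to 1.37. Background counts for this average were 0 of 14875 genes (0%) past the threshold and 10.7% at an unadjusted p under 0.05 with edgeR, and 143 calls with DESeq2. Without c9007 edgeR called 344 genes, 290 higher and 54 lower with IL6, and FASN and DGAT1 were not among them. Without ovoid control replicate 3 the averages became -0.13 ± 0.35 for FASN and -0.089 ± 0.20 for DGAT1 (SE). The effect of IL6 in tubular minus that in ovoid conceptuses was -0.44 ± 0.83 for FASN and -0.018 ± 0.39 for DGAT1 (log2 difference and SE, edgeR adjusted p = 1 for both). In this comparison edgeR called 0 of 14875 genes (0%), while 0.632% had an unadjusted p under 0.05, and DESeq2 likewise called 0.

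The title codes show how the IL6 groups were composed. FASN averaged 1170 ± 830 CPM in the 6 conceptuses of c6186 (SD) and 2198 ± 248 CPM in the 4 of c9007 (SD). Control codes averaged 1515 ± 1080 CPM in c201 (SD, n = 4) and 1978 ± 591 CPM in c5036 (SD, n = 4), with 909 and 1692 CPM in the 2 conceptuses of c8086. The means of the 3 control codes thus lay between those of the 2 IL6 codes. DGAT1 averaged 33.3 ± 4.87 CPM in c6186 (SD, n = 6) and 45.96 ± 3.93 CPM in c9007 (SD, n = 4). The control codes spanned that range, with 33.0 ± 15.7 CPM in c201 and 48.3 ± 3.19 CPM in c5036 (SD, n = 4 each). Code c6186 is also the shallower of the IL6 codes, with 2298491 to 6262473 counts per library, against 8589036 to 11366747 in c9007.

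Shape was compared within each treatment. Among IL6 conceptuses, FASN had a tubular mean of 1475 ± 821 CPM (SD, n = 4) and an ovoid mean of 1652 ± 902 CPM (SD, n = 6), a log2 fold change of -0.29 ± 0.60 (SE; adjusted p = 0.99997, edgeR). Among controls the tubular mean was 1857 ± 772 CPM (SD, n = 4) and the ovoid mean 1525 ± 842 CPM (SD, n = 6), a log2 fold change of 0.14 ± 0.60 (SE; adjusted p = 0.9998, edgeR). The control value was -0.034 ± 0.48 (SE) without ovoid control replicate 3. Fold intervals were 0.341 to 1.95 among IL6 conceptuses and 0.463 to 2.63 among controls, so either direction lies inside the limits for FASN. For DGAT1 the log2 fold change was -0.011 ± 0.28 among IL6 conceptuses (SE; adjusted p = 0.99997, edgeR) and 0.0072 ± 0.29 among controls (SE; adjusted p = 0.9998, edgeR). Its fold intervals were 0.660 to 1.49 and 0.664 to 1.52. Called genes numbered 0 of 14875 (0%) in both comparisons by edgeR and 0 by DESeq2, with 2.8% among IL6 conceptuses and 1.64% among controls at an unadjusted p under 0.05 by edgeR.

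Averaged over both treatments, tubular minus ovoid was -0.075 ± 0.43 for FASN (SE; adjusted p = 0.996, edgeR) and -0.0018 ± 0.20 for DGAT1 (SE; adjusted p = 1, edgeR), with fold intervals of 0.508 to 1.77 and 0.747 to 1.34. For that average edgeR called 0 of 14875 genes (0%), with 4.32% at an unadjusted p under 0.05. Codes c5036, c6186 and c9007 hold both shapes, and the direction of the FASN difference was not the same in the 3 codes. In c6186 it averaged 795 CPM in 2 tubular and 1358 CPM in 4 ovoid conceptuses. In c9007 it averaged 2156 CPM in 2 tubular and 2241 CPM in 2 ovoid conceptuses, and in c5036 2413 CPM in 2 tubular and 1544 CPM in 2 ovoid ones. The direction in c9007 depended on the scale, with means of 464 TPM in tubular and 453 TPM in ovoid conceptuses. These plain means are not adjusted for sex. With title code as a fixed term over these 14 conceptuses, the difference between shapes was -0.25 ± 0.39 for FASN (SE; adjusted p = 0.937, edgeR) and -0.00086 ± 0.13 for DGAT1 (SE; adjusted p = 0.999, edgeR).

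Males had higher mean levels of both genes, but neither difference passed the threshold. FASN averaged 1902 ± 757 CPM in males and 1337 ± 749 CPM in females (SD, n = 10 each), a log2 fold change of 0.56 ± 0.45 (SE; adjusted p = 0.857, edgeR, fold interval 0.771 to 2.83). DGAT1 averaged 43.2 ± 7.53 CPM in males and 34.8 ± 12.3 CPM in females (SD, n = 10 each), a log2 fold change of 0.29 ± 0.21 (SE; adjusted p = 0.845, edgeR, fold interval 0.899 to 1.66). In this comparison edgeR called 8 of 14875 genes (0.0538%) and placed 6.88% at an unadjusted p under 0.05. Without ovoid control replicate 3, a female, the values were 0.35 ± 0.36 for FASN and 0.19 ± 0.20 for DGAT1 (SE). The DGAT1 value was 0.11 without tubular control replicate 3. With 1 title code left out, FASN ran from 0.23 without c201 to 0.95 without c6186, and DGAT1 was 0.62 without c6186. Both genes stayed higher in males and below the threshold in each of these fits.

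**Figure D2:**
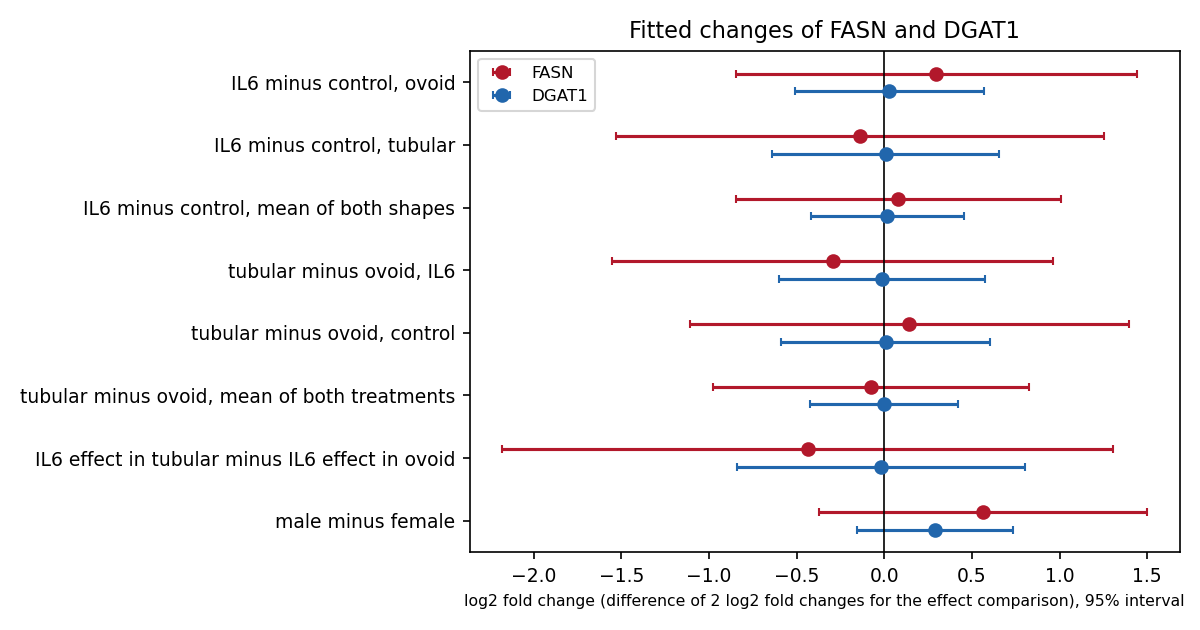
Fitted log2 fold changes of FASN and DGAT1 with 95% intervals from edgeR for each comparison, named first group minus second; the seventh is a difference of 2 log2 fold changes. The intervals of both genes include 0 in each of the 8 comparisons, and those of FASN are wider than those of DGAT1.

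FASN and DGAT1 levels varied together over the 20 conceptuses, but both also moved with the library total. As deviations from a straight line on the log2 library total, described below, the 2 genes had r = 0.121 (permutation p = 0.604). For log2 CPM itself, Pearson's r was 0.782 (permutation p = 3.0e-04, adjusted p = 5.0e-04) and Spearman's rho was 0.558 (permutation p = 0.0124, adjusted p = 0.0206), adjusted over 5 relations. Without ovoid control replicate 3 and ovoid IL6 replicate 3, the 2 conceptuses farthest from the median of FASN, r was 0.514 (permutation p = 0.0278) and rho was 0.412 (permutation p = 0.0914). Deviations from the group means and the sex term gave r = 0.749 (permutation p = 2.0e-04) and rho = 0.707 (permutation p = 8.0e-04). Deviations from the title code means gave r = 0.723 (permutation p = 9.5e-04) and rho = 0.541 (permutation p = 0.0150). Both include ovoid control replicate 3. Their permutations shuffled the deviations over all 20 conceptuses, so these p-values make no allowance for the terms removed. Within shapes r was 0.766 in the 8 tubular conceptuses (exact permutation p = 0.0194) and 0.794 in the 12 ovoid ones (permutation p = 0.00717). Within treatments r was 0.612 with IL6 (n = 10, permutation p = 0.0608) and 0.851 in controls (n = 10, permutation p = 0.00312). By rank the relation passed in none of these 4 subsets, with rho = 0.643 in tubular (exact permutation p = 0.0962), 0.517 in ovoid (permutation p = 0.0871), 0.552 in IL6 (permutation p = 0.105) and 0.612 in control conceptuses (permutation p = 0.0675). In c6186, with 6 conceptuses, r was 0.148 (exact permutation p = 0.757), and no value was computed within the other title codes, which hold 2 to 4 conceptuses each. Ovoid IL6 replicate 1 stood off the relation, with 2592 CPM of FASN, the highest ovoid IL6 value, and 28.7 CPM of DGAT1.

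**Figure D3:**
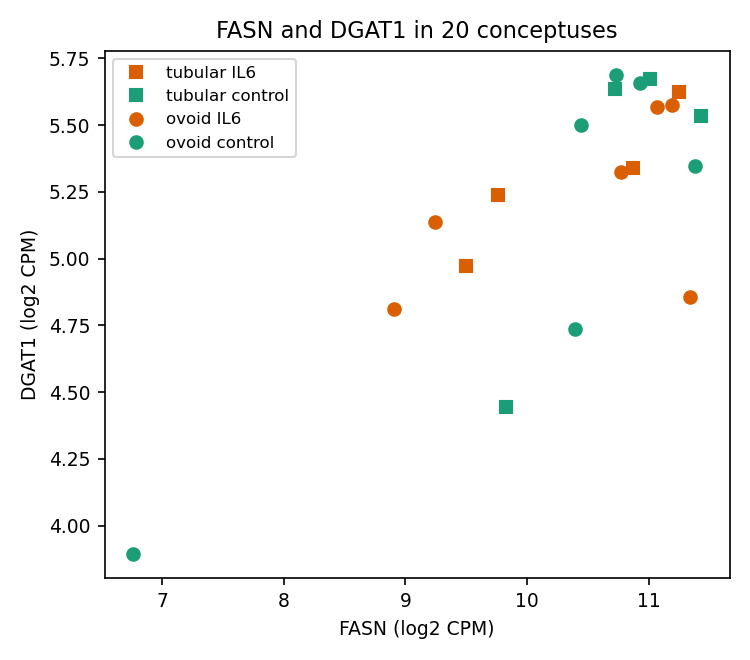
DGAT1 against FASN, both in log2 CPM, for the 20 conceptuses, with colour giving the treatment and marker the shape. The 4 groups mix along the trend, ovoid control replicate 3 lies alone at the lower left, and ovoid IL6 replicate 1 lies at the lower right.

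Both genes also moved with the library total, although CPM is already scaled for it. FASN in log2 CPM had r = 0.886 with the log2 total of counts (permutation p = 6.0e-05, adjusted p = 1.5e-04) and rho = 0.583 (permutation p = 0.00814, adjusted p = 0.0203). Without the 2 libraries farthest from the median total, FASN had r = 0.572 (permutation p = 0.0133) and rho = 0.428 (permutation p = 0.0777). DGAT1 had r = 0.848 (permutation p = 4.0e-05, adjusted p = 1.5e-04) and rho = 0.853 (permutation p = 1e-05, the smallest the permutations can give, adjusted p = 5.0e-05). Its r was 0.729 without the same 2 libraries (permutation p = 4.0e-04). Within title codes, deviations from the code means gave r = 0.881 for FASN (permutation p = 3.0e-05) and 0.815 for DGAT1 (permutation p = 6.0e-05). By rank they gave rho = 0.720 (permutation p = 4.8e-04) and 0.632 (permutation p = 0.00382) in the same order. These deviations include ovoid control replicate 3, and their p-values make no allowance for the code means removed. Such relations were common in both directions among genes whose mean log2 CPM reached 3: 2028 genes, these 2 included, had a rho of at least 0.5 with the total, 1240 had one of -0.5 or lower, and the median rho was 0.072. Of the 9722 other genes at that level, 173 had a higher rho with the total than DGAT1 and 1511 a higher one than FASN.

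Once each gene was taken as its deviation from a straight line on the log2 library total, FASN and DGAT1 had r = 0.121 (permutation p = 0.604) and rho = 0.0902 (permutation p = 0.705). Without ovoid control replicate 3 these deviations gave r = 0.126 (permutation p = 0.603). The share of counts from mitochondrial genes had r = 0.256 with FASN (permutation p = 0.280, adjusted p = 0.280, rho = -0.0406, permutation p = 0.866) and r = 0.425 with DGAT1 (permutation p = 0.0615, adjusted p = 0.0769, rho = 0.177, permutation p = 0.453). Without ovoid control replicate 3 the share had r = -0.212 with FASN (permutation p = 0.383) and r = 0.149 with DGAT1 (permutation p = 0.546). With the log2 total as a term in the model, edgeR gave IL6 log2 fold changes averaged over shapes of 0.16 ± 0.24 for FASN and 0.13 ± 0.13 for DGAT1 (SE, adjusted p = 0.818 and 0.722). Tubular minus ovoid, averaged over treatments, was then -0.48 ± 0.25 for FASN and -0.17 ± 0.13 for DGAT1 (SE; adjusted p = 0.794, edgeR for both). What sets the library total of a conceptus was not tested.

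**Figure D4:**
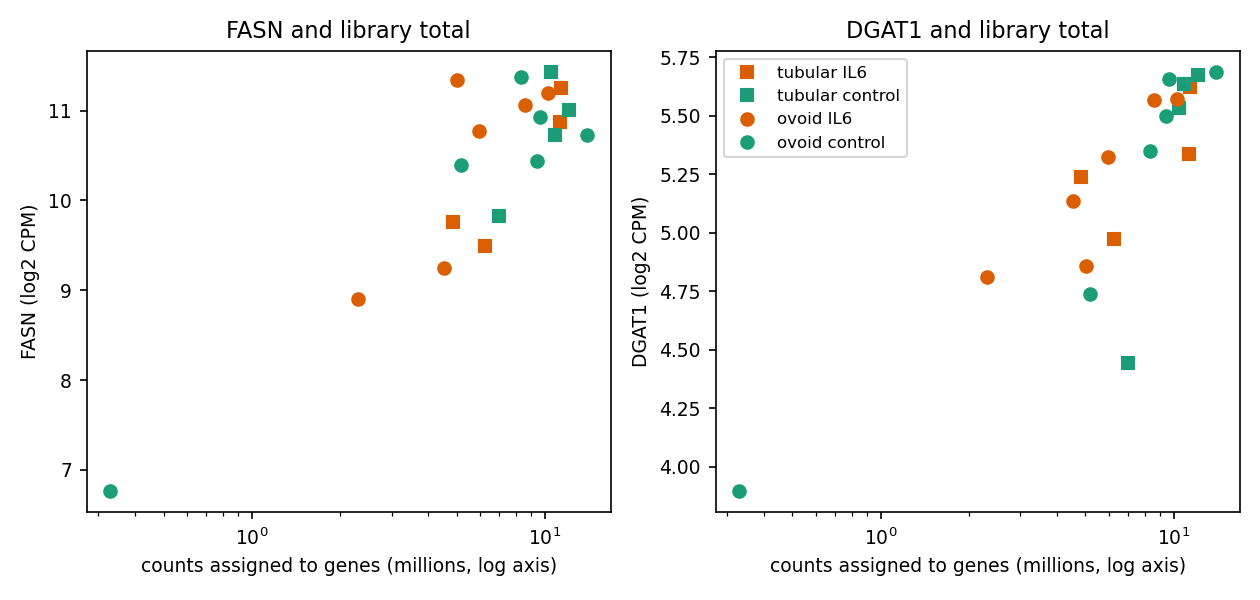
FASN (left) and DGAT1 (right) in log2 CPM against the counts assigned to genes in each library, on a log axis, with colour giving the treatment and marker the shape. Libraries with fewer counts tend to have lower levels of both genes, and the lowest point in each panel is ovoid control replicate 3 with 329666 counts.

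The genes most like each of the pair were taken by Spearman's rho of log2 CPM over the 20 conceptuses. For FASN these were ENSBTAG00000002673 (chromosome 5, 28040793 to 28042763, rho = 0.953) and ENSBTAG00000007415 (chromosome 10, 21683779 to 21737239, rho = 0.947), which also ranked first and second without ovoid control replicate 3. For DGAT1 they were ENSBTAG00000011471 (chromosome 12, 85238266 to 85258334, rho = 0.931) and ENSBTAG00000017409 (chromosome 19, 36662421 to 36667620, rho = 0.922). The first of these kept rank 1 and the second had rank 4 without that library. The files give no names for these 4 genes. In all, 168 of 9722 genes had a rho of at least 0.8 with FASN and 276 with DGAT1, while the rho between FASN and DGAT1 ranked 1251st among those of FASN and 1613th among those of DGAT1. Many genes therefore followed each of the pair more closely than the pair followed each other. Most did not, as the pair's rho was 0.558 and the median rho over the 9722 genes was 0.035 with FASN and 0.038 with DGAT1. These rho values were not adjusted for the library total, with which both FASN and DGAT1 moved. Whether the genes most like them share that relation was not tested.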

How the data were processed

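RNA of 20 whole conceptuses was depleted of ribosomal RNA and sequenced as read pairs of 150 nucleotides, per the labels' protocols. The authors deposited raw fragment counts per gene, made with featureCounts 2.0.1 ignoring strand and duplicates, on Ensembl release 105 of ARS-UCD1.2, per the file headers. The submitters' processing notes also name HISAT2, SAMtools and Picard, without settings or versions. The gene table used for names is of ARS-UCD2.0. Genes were filtered with edgeR 4.0.16 (filterByExpr by group, 14875 kept), and 1 quasi-likelihood model with TMM factors, 4 group terms and sex was fitted to all libraries. P-values were adjusted over all genes kept by the method of Benjamini and Hochberg. Libraries are separate conceptuses, and conceptuses sharing a title code may not be independent. TPM used the exon lengths of the count files. Log2 CPM used a prior count of 2, and correlations 100000 permutations, or all of them in groups of 8 or fewer, two-sided. Standard errors are the log2 fold change over the square root of F. Intervals for single libraries cover counting error. Alternatives used RLE factors, DESeq2 1.42.0, other filters, limma 3.58.1 with title code as a random block, and fits without a conceptus or title code. The fit was tested on simulated counts of independent libraries, so the test does not cover dependence between conceptuses that share a title code. Software was R 4.3.3, Python 3.11.15 and matplotlib 3.10.9. Genes, gene lists and tests were chosen with earlier results of these data known. FASN and DGAT1 were named in each comparison, and for likeness the 2 genes with the highest rho, among genes whose mean log2 CPM reached 3, were named. The planned lists of lipid and cell type genes needed symbols and were not used. The term for library total, the relations with it and with the mitochondrial share, and the counts of calls without a title code were added after the values were seen. Adjustment of the correlations was planned over the 3 pairs of named genes. Without SCD it was made over 5 relations, the added ones with library total and mitochondrial share among them.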

Additional observations from a re-analysis of the deposited data

Results flagged for a closer look

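DGAT1 measured 21.5 CPM in tubular control replicate 3, far below the 46.1, 50.8 and 49.4 CPM of the other tubular controls. FASN was also lowest in its group in that conceptus, at 909 CPM, and its library total, 6997220 counts, was the lowest of the tubular controls. The library has 141 counts for DGAT1, and an exact 95% Poisson interval of 18.1 to 25.4 CPM for counting error alone. The flag rests on the gap to the next value as a share of the range of the group. That share was 0.841, just above the critical value of 0.829. Chance flags about 1 in 20 groups of this kind. The check was run at both ends of each of the 4 groups, for FASN, for DGAT1 and for their ratio. No other value was flagged. Without this conceptus the log2 fold change of DGAT1 in tubular conceptuses, IL6 minus control, was -0.29, against 0.0092 with it. Its part in that value beyond this, and the cause of its low value, were not tested.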

How the results depend on the processing

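Of the log2 fold changes of FASN and DGAT1 from other settings, 399 kept their direction and 129 reversed it, and 0 passed the threshold (smallest adjusted p = 0.355). SCD could not be fitted. Directions turned in FASN and above all in DGAT1, whose values lie near 0. DGAT1 for IL6 minus control in ovoid conceptuses became -0.020 with DESeq2, -0.0035 without a low-count filter, -0.061 without the sex term and -0.020 with title code as a random block. In tubular conceptuses it became -0.018 with RLE factors, -0.024 with DESeq2, -0.028 without the filter, -0.021 with a CPM above 1 in at least 4 libraries and -0.088 without the sex term, and for both shapes -0.0086, -0.022, -0.016, -0.0099 and -0.074 under those same settings. DGAT1 for tubular minus ovoid became 0.064 among IL6 conceptuses without the sex term. Among controls it became -0.012 with DESeq2, -0.11 with the random block and -0.17 with library total as a term. For both treatments it became 0.011 without the filter, 0.0039 with the CPM minimum and 0.078 without the sex term. Its difference of IL6 effects became 0.077 with the random block. FASN became -0.11 for IL6 minus control over both shapes and 0.059 for tubular minus ovoid over both treatments without the sex term, 0.089 for that shape comparison with the random block, and -0.28 for tubular minus ovoid controls with library total as a term. Causes beyond the construction of these settings were not tested.

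With 1 conceptus or title code left out, FASN for IL6 minus control ran from -0.14 to 1.10 in ovoid, -0.98 to 0.55 in tubular and -0.56 to 0.83 over both shapes, and DGAT1 from -0.37 to 0.59, -0.29 to 0.30 and -0.23 to 0.45 in the same order. For tubular minus ovoid, FASN ran from -0.75 (without c9007) to -0.049 (without tubular IL6 replicate 1) with IL6, -0.16 to 0.52 in controls and -0.33 to 0.14 over both treatments, and its difference of IL6 effects from -0.84 to -0.14. DGAT1 ran from -0.40 to 0.069 with IL6, -0.26 to 0.27 in controls and -0.25 to 0.16 over both treatments, and its difference of IL6 effects from -0.28 to 0.29. For male minus female, FASN ran from 0.23 to 0.95 and DGAT1 from 0.11 to 0.62. The number of genes called for IL6, 0 with all conceptuses, was 11 in ovoid conceptuses and 1 over both shapes without ovoid IL6 replicate 5, and 154 and 344 without c9007. For sex the 8 calls ran from 5 to 23 with 1 conceptus left out, the highest without ovoid control replicate 3, and were 2 or 3 without any 1 title code. DESeq2 called 86, 143 and 82 genes in these 3 comparisons, the random block 13 for sex and the library-total term 14 for sex. The correlation of FASN with DGAT1 ran from 0.581 to 0.850 with 1 conceptus left out. By Pearson's r it no longer passed in IL6 conceptuses alone (0.612), in c6186 alone (0.148) or as deviations from a line on library total (0.121, and 0.126 without the shallowest library). By rho it also missed in ovoid, tubular and control conceptuses alone and without the 2 conceptuses farthest from the median of FASN. Depth limits DGAT1 most, with 5 counts in ovoid control replicate 3.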
